A study of Arabidopsis thaliana with 20 samples.

Results

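The transcriptome of pol2a-1suvh2suvh9 triple mutant seedlings of Arabidopsis thaliana was compared with that of wild type (WT) seedlings. The samples were chosen by their titles, which gave 2 triple mutant and 2 WT libraries of the 20 libraries in the series. The other seedling groups were suvh2suvh9 and pol2a-1, with 2 libraries each, and a group titled pol2a-2, with 2 libraries whose genotype label reads pol2a-1. Triple mutant plants carried the pol2a-1 allele of POL2A together with mutations of SUVH2 and SUVH9, suvh2suvh9 plants carried the SUVH mutations alone, and pol2a-1 plants carried the POL2A allele alone. All seedlings were 20 days old and had been grown in a greenhouse at 20 °C with 16 h of light a day, and each library was made from polyadenylated RNA of 4 to 5 pooled whole plants. The labels name no separate growth batches, so the p-values measure the spread between these libraries, which may be partly technical. No promoter, transgene or sorting step is named in the labels of the seedlings, and in RNA from whole seedlings fewer cells of a type and less RNA per cell cannot be told apart.

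The protein made from POL2A is the catalytic part of DNA polymerase epsilon, the enzyme that synthesises the leading strand during DNA replication and signals stalled forks. SUVH2 and SUVH9 are relatives of histone methyltransferases that bind methylated DNA and bring RNA polymerase V to chromatin, a step of the RNA-directed DNA methylation pathway that silences transposable elements (TEs) and some genes. In plants, DNA damage signals converge on the NAC transcription factor SOG1, which turns on repair genes and inhibitors of the cell cycle.

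The 10 seedling libraries fell into separate sets by how reads of organellar and near-identical copy genes had been counted. Chloroplast genes took 0.0215% and 0.0443% of the counts in the triple mutant libraries and 0.0231% and 0.0262% in suvh2suvh9, against 2.11 to 2.42% in pol2a-1, pol2a-2 and WT. Of 141 genes with at least 50% of their sequence repeated elsewhere, 0 and 1 were at 0 counts in the triple mutant, against 30 and 33 in WT. Triple mutant and WT therefore differ both in genotype and in counting set, and for features that the counting touches these cannot be told apart. The labels do not say whether the sets differ in anything else. For any feature, such a difference could not be told apart from genotype in this comparison. The triple mutant and suvh2suvh9 are of 1 set, and pol2a-1 and WT of the other, so that the differences triple mutant minus suvh2suvh9 and pol2a-1 minus WT are each within a set and share no library. Library totals were 27714243 and 22966652 counts in the triple mutant and 34451852 and 26823299 in WT, and ranged from 11906055 to 27250651 in the other 6 libraries. Replicates differed by more than counting noise in every group, with a chi-square per degree of freedom of 10.3 to 45.1.

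**Figure D1:**
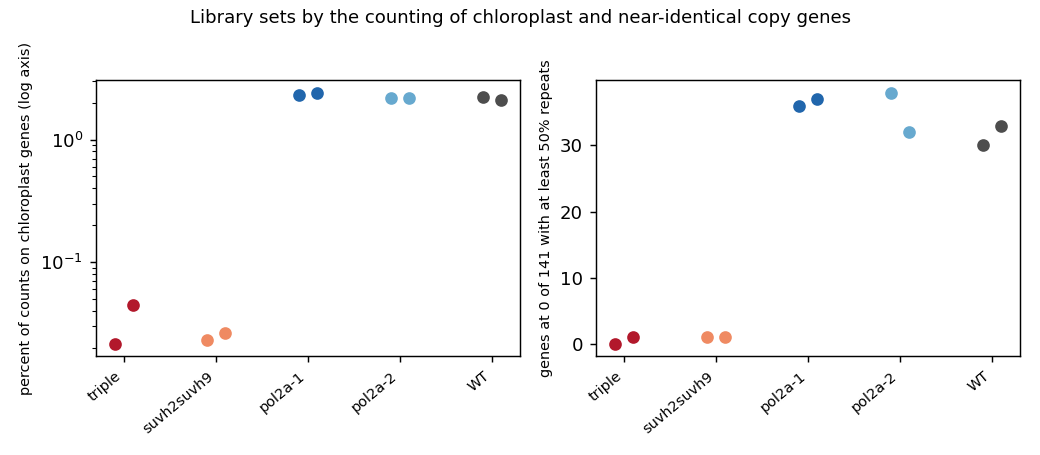
Left, percent of all counts on chloroplast genes in each of the 10 seedling libraries (log axis). Right, number of genes at 0 counts among 141 tested nuclear genes with at least 50% repeated sequence. Each point is 1 library. Triple mutant and suvh2suvh9 libraries lie under 0.05% and at 0 or 1 gene, and pol2a-1, pol2a-2 and WT libraries lie above 2% and at 30 or more genes.

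Counts were compared with edgeR's quasi-likelihood F test in 1 fit of all 10 seedling libraries, and a feature was called at a Benjamini-Hochberg adjusted p under 0.05 over 22297 genes and TEs. Against WT, 1279 of 20079 tested nuclear genes rose (6.37%) and 1166 fell (5.81%) in the triple mutant, and the median log2 difference over all tested nuclear genes was -0.0028. At least 2-fold were 522 of the rises and 575 of the falls. In suvh2suvh9 against WT, 941 of the 20079 rose and 1025 fell. In the triple mutant against suvh2suvh9, 36 nuclear genes rose (0.179%) and 12 fell (0.0598%), and against pol2a-1, 877 rose (4.37%) and 1146 fell (5.71%). These shares are the background for the gene lists that follow. Expression is given as CPM, the count per 1000000 counts of the scaled library, and differences as log2 fold change ± standard error, triple mutant minus the group it is set against.

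The counts were first checked against the genotypes. SUVH9 (AT4G13460, chromosome 4, 7823894 to 7827004) had 0.665 and 0.530 CPM in the triple mutant, 0.635 and 1.16 CPM in suvh2suvh9 and 33.8 and 30.1 CPM in WT. SUVH2 (AT2G33290, chromosome 2, 14108529 to 14112464) had 4.07 and 4.37 CPM in the triple mutant, 4.15 and 3.32 CPM in suvh2suvh9 and 7.94 and 10.9 CPM in WT. The triple mutant libraries lay below both WT libraries for each gene, as did the suvh2suvh9 libraries. SUVH9 fell 52.6-fold (-5.72 ± 0.25, adjusted p = 6.65e-07, edgeR quasi-likelihood test) and SUVH2 fell 2.23-fold (-1.15 ± 0.22, adjusted p = 0.00807). The SUVH2 call was lost without triple mutant replicate 1 or 2 or WT replicate 2, with adjusted p between 0.0538 and 0.0817. POL2A (AT1G08260, chromosome 1, 2588854 to 2606892) had 37.1 and 40.2 CPM in the triple mutant and 47.1 and 41.5 CPM in WT, a difference of -0.20 ± 0.26 that did not pass the test (adjusted p = 0.677). The level of POL2A mRNA thus does not check the pol2a-1 allele, whose nature the labels do not give.

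A part of the DNA damage response genes rose in the triple mutant. Of 29 listed genes, all of them tested, 12 rose against WT and 0 fell, with a median log2 difference of 0.88 over the 29, beside -0.0028 over all nuclear genes. The summed level of the list was 746 and 671 CPM in the triple mutant, 368 and 365 CPM in suvh2suvh9, 419 and 311 CPM in pol2a-1, 903 and 980 CPM in pol2a-2 and 335 and 342 CPM in WT. The triple mutant and pol2a-2 libraries thus stood above all libraries of the other groups. Most of the gap between the sums of the triple mutant and WT lay in TSO2, with 317 and 260 CPM against 55.1 and 60.0 CPM. The upstream sequences of 4 of the called genes are shown because SOG1 is known to bind a palindrome of CTT and AAG with 7 bases between, written CTTNNNNNNNAAG. They are the 120 bases before the annotated start of each gene in RefSeq's TAIR10.1, 5′ to 3′ on the strand of the gene, with each match in capitals.

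SMR5, chr1:2305032-2305151 (minus strand): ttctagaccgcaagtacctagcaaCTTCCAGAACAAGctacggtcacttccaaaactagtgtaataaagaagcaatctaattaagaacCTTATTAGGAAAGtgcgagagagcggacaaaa
SMR7, chr3:10231568-10231687 (minus strand): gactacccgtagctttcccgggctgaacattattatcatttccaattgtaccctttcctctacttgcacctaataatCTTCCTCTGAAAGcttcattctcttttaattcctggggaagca
PARP2, chr4:1049646-1049765 (plus strand): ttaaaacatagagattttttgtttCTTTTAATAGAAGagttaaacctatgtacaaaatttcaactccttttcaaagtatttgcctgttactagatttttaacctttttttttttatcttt
ANAC044, chr3:228955-229074 (plus strand): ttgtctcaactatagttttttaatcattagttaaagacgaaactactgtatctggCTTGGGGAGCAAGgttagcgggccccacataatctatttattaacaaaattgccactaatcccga

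In the 300 bases before the start, on either strand, 9 of the 29 damage response genes held the motif (31%), beside 3128 of 27443 nuclear protein-coding genes (11.4%), 22.2% of the clock genes, 18.8% of the G2 and mitosis genes and 10% of the replication genes described further on. Of the 12 called genes 6 held it, among them SMR5 with 2 matches, SMR7, PARP2, ANAC044, and ANAC085, whose match lies outside the 120 bases nearest its start. SMR4, TEB and RAD54 held it and were not called. A match of letters is a description and not a measured binding site.

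Inhibitors of the cell cycle were among the rises. SMR7, an inhibitor of cyclin-dependent kinases, had 9.28 and 7.2 CPM in the triple mutant, 0.224 and 0.149 CPM in suvh2suvh9, 3.54 and 0.0872 CPM in pol2a-1, 23.1 and 19.0 CPM in pol2a-2 and 0.261 and 0.113 CPM in WT. Both triple mutant libraries lay above all libraries of WT, suvh2suvh9 and pol2a-1, and the pol2a-1 libraries lay far apart from each other. SMR7 rose 41.2-fold against WT (5.37 ± 0.84, adjusted p = 0.00362, edgeR quasi-likelihood test). SMR5, its relative, had 3.44 and 2.38 CPM in the triple mutant and 0.261 and 0.452 CPM in WT (3.04 ± 0.71, adjusted p = 0.0208). All of SMR5's annotated exon sequence lies opposite another gene, and since the library kit does not mark strand, reads of both cannot be told apart. WEE1, a kinase that holds cells before mitosis, had 8.21 and 6.98 CPM in the triple mutant and 3.25 and 2.94 CPM in WT (1.29 ± 0.25). SMR4 and SIM, of the same inhibitor family as SMR7, differed from WT by 0.86 ± 0.47 and -0.33 ± 0.23 and were not called.

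The NAC factors that relay the signal of SOG1 moved with them. ANAC085 had 0.850 and 1.28 CPM in the triple mutant, 4.00 and 2.94 CPM in pol2a-2 and 0 counts in each WT and each suvh2suvh9 library, which makes it at least 21.3-fold higher than WT against a floor of 3 counts over the WT group. ANAC044 had 2.81 and 2.74 CPM in the triple mutant, 0.262 and 0.708 CPM in suvh2suvh9 and 0.667 and 0.640 CPM in WT (2.08 ± 0.37, adjusted p = 0.00651, edgeR quasi-likelihood test). For both genes the triple mutant libraries lay above every library of WT, suvh2suvh9 and pol2a-1 and below both pol2a-2 libraries. SOG1 itself had 12.2 and 10.7 CPM in the triple mutant and 10.1 and 9.90 CPM in WT (0.20 ± 0.16, not called), and the kinases ATM and ATR, which act upstream of SOG1, differed from WT by -0.18 ± 0.46 and 0.52 ± 0.28, not called either.

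Repair and nucleotide supply genes made up the rest. TSO2, the small subunit of ribonucleotide reductase that makes deoxynucleotides, had 317 and 260 CPM in the triple mutant, 66.9 and 73.1 CPM in suvh2suvh9, 103 and 66.5 CPM in pol2a-1, 429 and 363 CPM in pol2a-2 and 55.1 and 60.0 CPM in WT. XRI1, a gene first found as induced by X-rays, had 36.2 and 32.9 CPM in the triple mutant, 9.20 and 8.76 CPM in suvh2suvh9, 13.6 and 12 CPM in pol2a-1, 60.4 and 56.8 CPM in pol2a-2 and 8.38 and 7.23 CPM in WT. In both genes the triple mutant libraries overlapped no library of another group. TSO2 rose 5.01-fold (2.33 ± 0.21, adjusted p = 0.00017) and XRI1 4.42-fold (2.14 ± 0.14, adjusted p = 2.06e-05) against WT in edgeR's quasi-likelihood test. PARP2 (AT4G02390), a poly(ADP-ribose) polymerase, had 31.4 and 31.5 CPM in the triple mutant and 4.35 and 5.53 CPM in WT (2.67 ± 0.55). The rises of RPA1E, a single-strand binding subunit, of GMI1, a repair gene induced by gamma irradiation, and of CYCB1;1, a cyclin that also acts in repair, were 1.82 ± 0.33, 1.5 ± 0.42 and 1.43 ± 0.21.

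The remaining members did not pass the test. BRCA1 had 21.5 and 19.6 CPM in the triple mutant and 8.38 and 11 CPM in WT (1.08 ± 0.33, adjusted p = 0.056, edgeR quasi-likelihood test). The end-joining genes KU70, KU80 and LIG4 were at -0.37 ± 0.15, -0.34 ± 0.14 and -0.23 ± 0.33, and the histone variants HTA3 and HTA5 at -0.05 ± 0.19 and 0.34 ± 0.14. Leaving out 1 library at a time moved the count of rises in the list between 5 (without WT replicate 1) and 16 (without either pol2a-2 replicate). The calls of SMR7, ANAC085, TSO2, XRI1 and CYCB1;1 held in each of the 10 fits, and the other 7 were lost in at least 1.

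**Figure D2:**
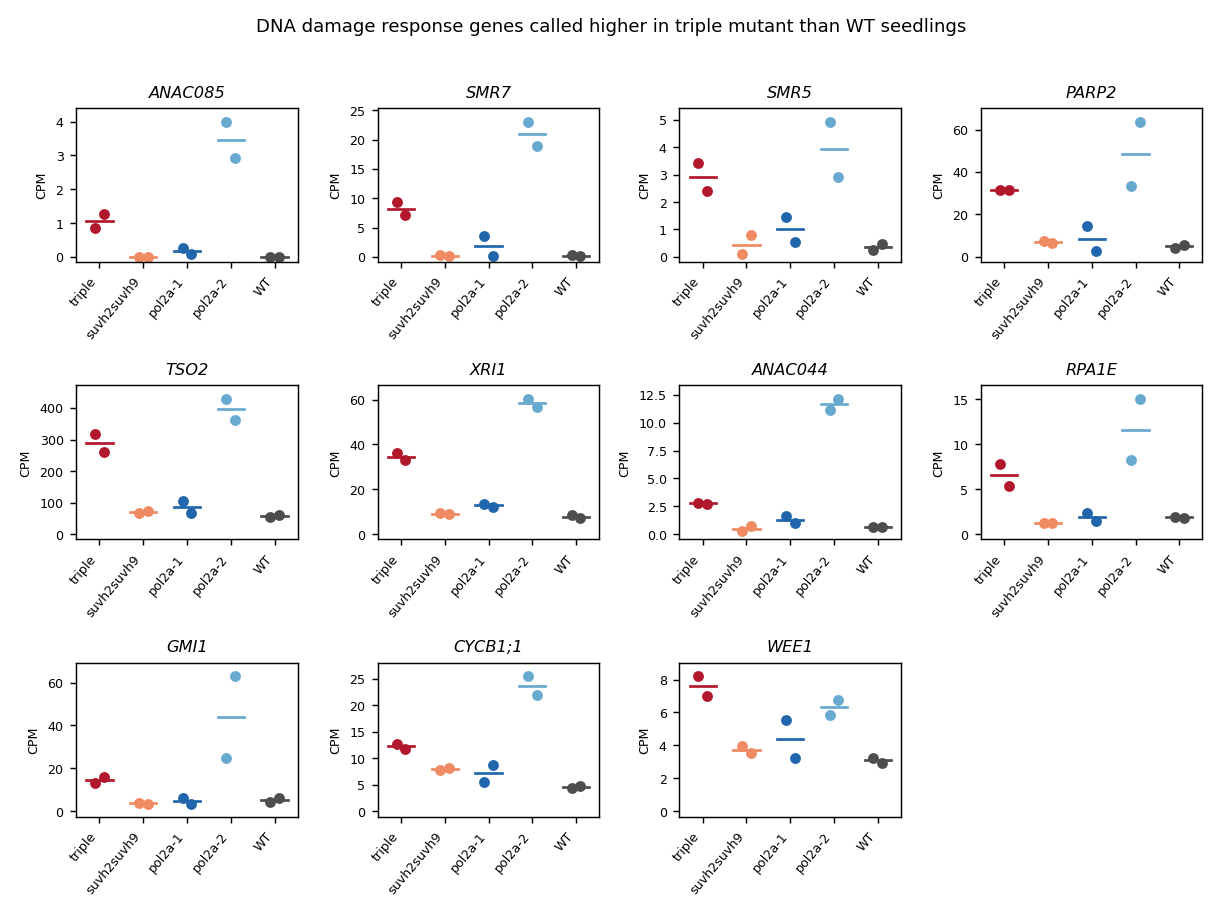
CPM of 11 of the 12 damage response genes called higher in the triple mutant than in WT, in each seedling library (linear axes that include 0, 1 point per library, bar at the group mean), with triple mutant at the left and WT at the right. TSO2 reached 317 and 260 CPM and XRI1 36.2 and 32.9 CPM in the triple mutant, above all libraries of suvh2suvh9, pol2a-1 and WT and below those of pol2a-2.

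Triple mutant and suvh2suvh9 were compared within 1 counting set, in the same fit of 10 libraries, so that all groups entered the estimate of spread. Against suvh2suvh9, 6 of the 29 genes rose and 0 fell, with 24 of 29 differences positive and a median of 0.73, beside -0.0061 over all nuclear genes. The 6 were XRI1 (1.94 ± 0.14, adjusted p = 0.000815), TSO2 (2.04 ± 0.21, adjusted p = 0.00625), RPA1E (2.38 ± 0.35, adjusted p = 0.04), ANAC044 (2.50 ± 0.39, adjusted p = 0.0485), SMR7 (5.43 ± 0.86, adjusted p = 0.0496) and ANAC085 (adjusted p = 0.0496), all by edgeR's quasi-likelihood test. ANAC085 was at least 18.7-fold higher than in suvh2suvh9, against the floor of 3 counts over that group. Only XRI1 of the 6 kept its call when each library was left out in turn, and RPA1E, ANAC044, SMR7 and ANAC085 were lost without either WT replicate as well as in other fits. Without suvh2suvh9 replicate 2 the count fell to 1, TSO2 then having an adjusted p of 0.0697, and without either pol2a-2 replicate it was 9. In pol2a-1 against WT, 0 of the 29 were called by edgeR's quasi-likelihood test, where 3 nuclear genes rose in all (0.0149%), and 6 of the 29 had an unadjusted p under 0.05. In pol2a-2 against WT, which shares its WT libraries with the triple mutant's comparison, 12 of the 29 rose, beside 352 of 20079 nuclear genes (1.75%).

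Some genes of DNA replication rose. Of 28 tested nuclear genes, 7 rose against WT and 0 fell, and the median difference was 0.41. TK1A, a thymidine kinase of the deoxynucleotide salvage pathway, had 49.4 and 47.1 CPM in the triple mutant, 11.9 and 12.9 CPM in suvh2suvh9, 34.8 and 24.9 CPM in pol2a-1, 153 and 83.0 CPM in pol2a-2 and 12.8 and 12.6 CPM in WT. It rose 3.80-fold against WT (1.93 ± 0.27, adjusted p = 0.00201, edgeR quasi-likelihood test) and by 1.96 ± 0.27 against suvh2suvh9 (adjusted p = 0.0282), and its libraries overlapped no library of those groups. The call against suvh2suvh9 was lost in 6 of the 10 fits without 1 library (adjusted p between 0.0503 and 0.262). The other 6 rises were between 0.50 and 0.68: the sliding clamp PCNA1, the licensing factors CDT1A and CDT1B, the helicase subunits MCM3 and PSF1, and POLD2, a subunit of DNA polymerase delta. Each of these 6 was lost in at least 4 of the 10 fits that left out 1 library, and the count of rises was then as low as 1. DPB2, the second subunit of DNA polymerase epsilon, had 6.40 and 5.92 CPM in the triple mutant and 4.84 and 4.48 CPM in WT (0.40 ± 0.19, not called), and POL2B, the other gene for the catalytic subunit, was too low to be tested, with 2 and 0 counts in the triple mutant.

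Most genes of G2 and mitosis rose. Of 15 tested nuclear genes 11 rose and 0 fell against WT, all 15 differences were positive, and the median was 0.97. The summed level of the list was 370 and 367 CPM in the triple mutant, 306 and 298 CPM in suvh2suvh9, 216 and 198 CPM in pol2a-1, 364 and 401 CPM in pol2a-2 and 166 and 183 CPM in WT. CDKB1;1, a plant-specific mitotic kinase, had 14.4 and 12.1 CPM in the triple mutant, 7.59 and 8.46 CPM in suvh2suvh9 and 4.67 and 4.44 CPM in WT (1.54 ± 0.16, adjusted p = 0.000477, edgeR quasi-likelihood test). KNOLLE, the syntaxin of the cell plate, had 56.0 and 57.5 CPM in the triple mutant, 47.4 and 52.0 CPM in suvh2suvh9 and 25.2 and 30.3 CPM in WT (1.03 ± 0.15, adjusted p = 0.00229). For both genes the 3 groups did not overlap and suvh2suvh9 lay between the triple mutant and WT. The other 9 rises, among them the cyclins CYCB1;2, CYCB1;3, CYCB1;4 and CYCA1;1 and the Aurora kinases AUR1 and AUR2, were between 0.65 and 1.53. Against suvh2suvh9 no gene of the list was called by edgeR's quasi-likelihood test, and 0 by DESeq2, and 8 of 15 had an unadjusted p under 0.05, with all 15 differences positive and a median of 0.39. Without WT replicate 1 the count of rises against WT was 4, and the calls of CDKB1;1, CDKB2;1, CYCA1;1 and KNOLLE held in each fit without 1 library.

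Genes known to be silenced by DNA methylation changed in both directions. SDC, an F-box gene silenced through repeats in its promoter, had 6.58 and 9.32 CPM in the triple mutant, 41.7 and 21.0 CPM in suvh2suvh9, 1.27 and 0.698 CPM in pol2a-1, 0.601 and 0.548 CPM in pol2a-2 and 0.290 and 0.452 CPM in WT. MRD1 had 5.14 and 13.9 CPM in the triple mutant, 21.5 and 23.2 CPM in suvh2suvh9, 0.401 and 0.436 CPM in pol2a-1, 12.7 and 24.1 CPM in pol2a-2 and 0.0870 and 0.376 CPM in WT. Triple mutant libraries thus lay above WT and below suvh2suvh9 for both genes, and MRD1 was also high in the 2 libraries titled pol2a-2. SDC rose 21.5-fold (4.43 ± 0.44, adjusted p = 0.000316) and MRD1 42.7-fold (5.42 ± 0.66, adjusted p = 0.00111) against WT in edgeR's quasi-likelihood test. Against suvh2suvh9 the differences were -1.98 ± 0.33 for SDC (adjusted p = 0.0532) and -1.24 ± 0.44 for MRD1 (adjusted p = 0.302), not called. The SDC difference from suvh2suvh9 was called without suvh2suvh9 replicate 2 or without either pol2a-2 replicate. Other genes lie opposite 80.2% of the exon sequence of SDC and 89.8% of that of MRD1, which overlaps HEI10, so their reads cannot be told apart.

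QQS, an Arabidopsis gene that regulates starch and carries methylation in its upstream region, went the other way. It had 0.0739 and 0.353 CPM in the triple mutant, 0.748 and 0.894 CPM in suvh2suvh9, 4.95 and 3.14 CPM in pol2a-1, 1.00 and 0.940 CPM in pol2a-2 and 2.49 and 3.99 CPM in WT (-3.94 ± 0.57, adjusted p = 0.00243, edgeR quasi-likelihood test). The triple mutant was lowest of the 5 groups. FWA and HDG3, the other listed genes of this kind, had too few counts to be tested, with 2 and 4 counts and 1 and 2 counts in the triple mutant. Thus 2 of 3 tested members rose and 1 fell.

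Genes that carry out the silencing differed little. Of 38 genes of RNA-directed DNA methylation and other silencing pathways, 2 rose and 0 fell against WT, a share of 5.26% beside the 6.37% of all nuclear genes, and the median difference was -0.04. The 2 were AGO6, an Argonaute of the pathway, with 5.21 and 5.96 CPM in the triple mutant and 2.58 and 2.48 CPM in WT (1.14 ± 0.30, adjusted p = 0.0343, edgeR quasi-likelihood test), and the ATPase MORC6, with 16.6 and 20.6 CPM against 13.0 and 11.3 CPM in WT (0.61 ± 0.17, adjusted p = 0.0404). Both calls were lost in at least 6 of the 10 fits without 1 library. The demethylase gene ROS1, which falls in known methylation mutants, had 10.1 and 9.67 CPM in the triple mutant, 6.62 and 1.56 CPM in suvh2suvh9, 44.3 and 20.0 CPM in pol2a-1, 12.6 and 55.9 CPM in pol2a-2 and 38.4 and 34.9 CPM in WT. Its triple mutant libraries lay below both WT libraries, but the difference of -1.89 ± 0.69 was not called (adjusted p = 0.104). Of the 7 tested genes of Polycomb repressive complex 2 and LHP1, MSI1 alone was called, at 0.59 ± 0.15 (adjusted p = 0.0275), and it was lost without either triple mutant or either WT library.

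TEs changed in both directions. Of 1748 tested TEs, 203 rose (11.6%) and 98 fell (5.61%) in the triple mutant against WT. In suvh2suvh9 against WT, 148 of them rose and 100 fell. By length, the rises were 63 of 206 TEs of at least 2000 bases (30.6%), 29 of 398 of 500 to under 2000 bases (7.29%) and 111 of 1144 shorter ones (9.7%). At 0 counts in both WT libraries were 56 of the 203. Of these 56, 17 were also at 0 in the 4 pol2a-1 and pol2a-2 libraries and above 0 in the 4 triple mutant and suvh2suvh9 libraries, which is also the split between the counting sets. How much of a TE's sequence is repeated was not measured here, so for TEs genotype and counting set cannot be told apart in this comparison. AT1TE72010 is of that kind, with 9.98 and 11.6 CPM in the triple mutant, 12.9 and 11.3 CPM in suvh2suvh9 and 0 counts in each pol2a-1, pol2a-2 and WT library, at least 218-fold higher than WT against the floor of 3 counts over the group. AT5TE50260 is not, with 2.88 and 3.31 CPM in the triple mutant, 3.74 and 3.88 CPM in suvh2suvh9, 2.21 and 1.92 CPM in pol2a-1, 1.53 and 4.07 CPM in pol2a-2 and 0 counts in both WT libraries, at least 62.7-fold higher than WT. AT5TE50260 thus was absent from the counts of WT alone of the 5 groups. The largest falls among the TEs were AT4TE42885 and AT5TE29585, both at 0 counts in the triple mutant and at least 10.9-fold and 10.0-fold lower than WT, and AT2TE26610, with 0.222 and 0.309 CPM in the triple mutant and 22.2 and 12.4 CPM in WT (-6.01 ± 0.54, adjusted p = 0.00017, edgeR quasi-likelihood test). The first 2 of these were lost in at least 3 of the 10 fits without 1 library. Without WT replicate 1 the count of rises was 45, and without triple mutant replicate 1 the count of falls was 19.

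Within the counting set the TE differences were few and in 1 direction. Against suvh2suvh9, 7 of 1748 TEs rose (0.4%) and 0 fell by edgeR's quasi-likelihood test, and at an unadjusted p under 0.05 there were 132 higher and 49 lower elements, while DESeq2 called 43 in either direction. Of the 7, 4 were at least 2000 bases long. AT1TE93275 had 8.24 and 7.51 CPM in the triple mutant, 0 counts in both suvh2suvh9 libraries, 5.48 and 4.62 CPM in pol2a-1, 2.67 and 2.94 CPM in pol2a-2 and 0 and 0.0376 CPM in WT. Its triple mutant libraries were at least 141-fold higher than suvh2suvh9, against the floor of 3 counts over that group, and it was called in each fit without 1 library. Its counts were close in every library to those of the gene AT1G75945, described further on. The long element AT5TE42470 had 3.10 and 2.92 CPM in the triple mutant, 0.0747 and 0 CPM in suvh2suvh9, 0.201 and 0.262 CPM in pol2a-1, 0.0667 and 0.274 CPM in pol2a-2 and 0.0580 and 0.0376 CPM in WT. AT3TE63540 had 4.84 and 3.80 CPM in the triple mutant, 0.149 CPM in each suvh2suvh9 library, 1.07 and 0.174 CPM in pol2a-1, 1.6 and 0.940 CPM in pol2a-2 and 0.261 and 0.226 CPM in WT (4.81 ± 0.65 against suvh2suvh9, adjusted p = 0.0282). For these last 2 elements both triple mutant libraries lay above all 8 other libraries. AT1TE51735, AT3TE60425 and AT4TE19150 were at 0 counts in both suvh2suvh9 libraries and at least 29.8-fold, 27.0-fold and 13.3-fold higher in the triple mutant. The calls other than that of AT1TE93275 were lost in 6 or more of the 10 fits without 1 library, and without either triple mutant library or suvh2suvh9 replicate 2 only 1 TE was called.

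Among genes of flowering time, FT rose and members of the FLC clade fell. FT encodes the mobile signal that triggers flowering, and it had 11.8 and 11.5 CPM in the triple mutant, 0.673 and 0.559 CPM in suvh2suvh9, 0.602 and 1.48 CPM in pol2a-1, 1.00 and 2.39 CPM in pol2a-2 and 0.406 and 0.301 CPM in WT. Both triple mutant libraries lay above all 8 other libraries. FT rose 32-fold against WT (5.00 ± 0.47, adjusted p = 0.000213, edgeR quasi-likelihood test) and 18.7-fold against suvh2suvh9 (4.23 ± 0.44, adjusted p = 0.0073). The second call was lost without triple mutant replicate 1 or suvh2suvh9 replicate 2, with adjusted p between 0.0603 and 0.117. Of 13 tested genes of the list, FT alone rose against WT and 2 fell, the flowering repressors MAF4 and MAF5 of the FLC clade. MAF5 had 0.998 and 1.68 CPM in the triple mutant, 0.112 and 0.932 CPM in suvh2suvh9 and 11.4 and 10.2 CPM in WT (-3.03 ± 0.56, adjusted p = 0.0077), and MAF4 fell by 1.63 ± 0.36 on the log2 scale (adjusted p = 0.0171). Both falls were lost without triple mutant replicate 1 or WT replicate 1, and that of MAF4 also without replicate 2 of either group. FLC, the founding repressor of that clade, had 3.85 and 5.83 CPM in the triple mutant and 5.39 and 4.33 CPM in WT, and FLM, MAF2, MAF3 and SVP differed from WT by -0.27 to 0.20, not called. CO, which activates FT in long days, had 1.22 and 0.707 CPM in the triple mutant and 1.51 and 0.677 CPM in WT.

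Some floral organ identity genes rose. SEP1, SEP2 and SEP3, MADS-box genes of this group, rose against both WT and suvh2suvh9. SEP3 had 7.28 and 6.84 CPM in the triple mutant, 0.336 and 0.522 CPM in suvh2suvh9, 4.41 and 5.06 CPM in pol2a-1, 10.3 and 13.8 CPM in pol2a-2 and 1.57 and 2.67 CPM in WT. SEP1 had 6.62 and 5.08 CPM in the triple mutant, 0.149 and 0.335 CPM in suvh2suvh9, 5.75 and 5.49 CPM in pol2a-1, 6 and 7.21 CPM in pol2a-2 and 2.61 and 1.84 CPM in WT. In both genes the suvh2suvh9 libraries were lowest, followed by WT, and SEP1 in the triple mutant overlapped pol2a-1 and pol2a-2. Against suvh2suvh9, SEP3 rose 16.3-fold (4.02 ± 0.34, adjusted p = 0.00165) and SEP1 by 4.56 ± 0.37 on the log2 scale (adjusted p = 0.00145) in edgeR's quasi-likelihood test, and both calls held in each fit without 1 library. Against WT, SEP3 rose by 1.75 ± 0.28 and SEP1 by 1.39 ± 0.28, and the call of SEP1 was lost without triple mutant replicate 1 or WT replicate 2.

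SEP2 had 2.74 and 2.52 CPM in the triple mutant, 0 and 0.112 CPM in suvh2suvh9, 2.27 and 1.40 CPM in pol2a-1, 3.80 and 4.03 CPM in pol2a-2 and 0.928 and 0.866 CPM in WT. It rose by 1.54 ± 0.43 against WT, a call lost without either triple mutant or either WT replicate. The call of SEP2 against suvh2suvh9 was lost without triple mutant replicate 1. With 3 counts in the suvh2suvh9 group the ratio over it was 47.1 (95% exact counting interval 15.8 to 231). AG, which specifies stamens and carpels, had 1.44 and 1.5 CPM in the triple mutant, 0.0747 and 0.149 CPM in suvh2suvh9 and 1.22 and 1.43 CPM in WT. AG was thus above suvh2suvh9 (3.65 ± 0.48, adjusted p = 0.0248, edgeR quasi-likelihood test) and not called against WT (0.16 ± 0.35, adjusted p = 0.819), and the first of these calls was lost in 5 of the 10 fits without 1 library (adjusted p between 0.054 and 0.206). AP3, a petal and stamen gene, fell against WT, with 0.148 and 0.0883 CPM in the triple mutant, 0.0374 and 0.186 CPM in suvh2suvh9 and 1.04 and 2.18 CPM in WT (-3.68 ± 0.68 against WT, adjusted p = 0.00783). This call was lost without either triple mutant replicate. Against suvh2suvh9, SHP1 and SHP2, which act in the fruit and ovule, differed by -0.31 ± 0.27 and 2.73 ± 1.02 and AP3 by 0.10 ± 0.94, not called. PI, the partner of AP3, had 0.850 and 1.24 CPM in the triple mutant and 2 counts in the suvh2suvh9 group, a ratio of 27.5 (95% exact counting interval 7.23 to 233) that was not called either (adjusted p = 0.0848). FUL, a MADS-box gene of the floral transition, had 4.29 and 4.28 CPM in the triple mutant, 1.46 and 1.42 CPM in suvh2suvh9 and 3.36 and 4.25 CPM in WT, and was called against suvh2suvh9 (1.57 ± 0.23, adjusted p = 0.0396) and not against WT. The FUL call was lost in 8 of the 10 fits without 1 library (adjusted p between 0.0546 and 0.323). In all, 4 of 12 floral and KNOX genes rose and 1 fell against WT (SEP1, SEP2, SEP3 and the meristem gene KNAT1 rose, and AP3 fell), and 4 rose and 0 fell against suvh2suvh9 (SEP1, SEP2, SEP3 and AG). KNAT1 had 16.2 and 13.7 CPM in the triple mutant, 10.9 and 13.2 CPM in suvh2suvh9 and 5.28 and 4.52 CPM in WT. Without triple mutant replicate 1 the count of rises was 2 against WT and 2 against suvh2suvh9, and without WT replicate 2 it was 2 against WT. How many plants of each pool had begun to form floral buds is not given in the labels, and its part in these values was not tested.

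**Figure D3:**
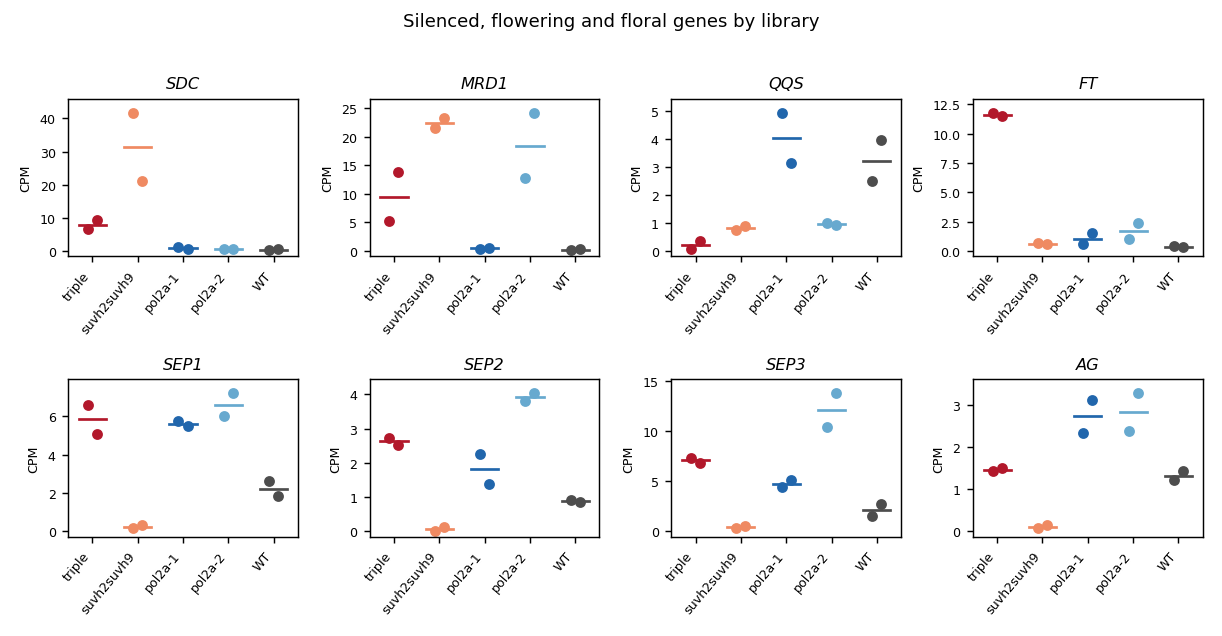
CPM of 3 genes silenced by DNA methylation, of FT and of 4 floral genes in each seedling library (linear axes that include 0, 1 point per library, bar at the group mean). SDC and MRD1 lie between suvh2suvh9 and WT in the triple mutant, FT is high in the 2 triple mutant libraries at 11.8 and 11.5 CPM, and the SEP genes and AG are near 0 in suvh2suvh9.

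Some defence genes of the salicylic acid pathway fell. Of 18 tested genes, 0 rose and 8 fell against WT, beside 5.81% of all nuclear genes lower, and the median difference was -1.42. PR5, a secreted defence protein, had 7.32 and 3.89 CPM in the triple mutant, 5.12 and 5.14 CPM in suvh2suvh9, 11.2 and 11.9 CPM in pol2a-1, 13.3 and 14.0 CPM in pol2a-2 and 25.2 and 22.2 CPM in WT (-2.07 ± 0.25, adjusted p = 0.000942, edgeR quasi-likelihood test). PR1, the classical marker of the pathway, had 0.333 and 0.177 CPM in the triple mutant, 0.112 and 0.0745 CPM in suvh2suvh9, 1.40 and 0 CPM in pol2a-1, 4.60 and 2.23 CPM in pol2a-2 and 17.3 and 5.80 CPM in WT (-5.45 ± 0.91, adjusted p = 0.00484). WT was the highest group for both genes. PR2 rested on 1 library: it had 1.89 and 2.83 CPM in the triple mutant and 28.5 and 2.94 CPM in WT, and without WT replicate 1 its adjusted p was 0.737. The other falls were those of NIMIN1, CBP60g, PBS3, PAD4 and NPR1, between -3.16 ± 0.70 and -0.53 ± 0.12. Against suvh2suvh9 the list had a median of 0.002 and 0 calls by edgeR's quasi-likelihood test, with 3 genes at an unadjusted p under 0.05 and 1 call by DESeq2. The summed level was 147 and 136 CPM in the triple mutant, 157 and 219 CPM in suvh2suvh9 and 332 and 201 CPM in WT. The count of falls against WT was 2 without triple mutant replicate 2 or without WT replicate 1, and those of PR1 and PR5 held in each fit without 1 library.

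Some jasmonate genes fell too. Of 21 tested genes 0 rose and 5 fell against WT, with a median of -0.94. LOX3 and LOX4 encode lipoxygenases that begin jasmonate synthesis. LOX4 had 3.10 and 3.09 CPM in the triple mutant, 3.66 and 12.6 CPM in suvh2suvh9 and 26.7 and 23.2 CPM in WT (-3.01 ± 0.54, adjusted p = 0.00679, edgeR quasi-likelihood test), and LOX3 fell by 2.12 ± 0.35 on the log2 scale. The storage protein gene VSP1, a common jasmonate marker, had 9.02 and 2.08 CPM in the triple mutant, 0.561 and 1.42 CPM in suvh2suvh9, 90.6 and 45.4 CPM in pol2a-1 and 38.7 and 16.5 CPM in WT (-2.30 ± 0.63, adjusted p = 0.0384). The thionin THI2.1, with 2 counts in the triple mutant group, was 44.8-fold lower than WT (95% exact counting interval 12.1 to 374), and AOC2 fell by 1.59 ± 0.43. Each of the 5 falls was lost without at least 1 of the triple mutant libraries, where the count was 1, and the suvh2suvh9 libraries lay far apart in this list, at 542 and 1409 CPM summed, beside 516 and 645 CPM in the triple mutant and 1330 and 851 CPM in WT.

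Cold and drought genes gave 7 falls and 0 rises among 17 tested, with a median of -1.16 against WT. CBF3, which turns on the cold regulon, had 0.111 and 0.398 CPM in the triple mutant, 1.31 and 5.11 CPM in suvh2suvh9, 1.40 and 1.92 CPM in pol2a-1, 1.2 and 1.61 CPM in pol2a-2 and 4.38 and 5.31 CPM in WT. Its target COR15A had 3.10 and 5.79 CPM in the triple mutant, 13.6 and 37.8 CPM in suvh2suvh9, 16.1 and 15.9 CPM in pol2a-1, 12.1 and 8.77 CPM in pol2a-2 and 28.6 and 26.3 CPM in WT. For both genes the triple mutant libraries were the lowest of all 10. They fell by 4.27 ± 0.71 and 2.63 ± 0.44 on the log2 scale against WT (adjusted p = 0.00486 and 0.00499, edgeR quasi-likelihood test), and both were lost without triple mutant replicate 1 (adjusted p = 0.0554 and 0.0544). COR15B, COR413IM1, KIN2, GOLS3 and ERD10 also fell, by 1.16 to 2.04 on the log2 scale, and the calls of COR15B and COR413IM1 held in each fit without 1 library. Without triple mutant replicate 1 these were the 2 falls left in the list. The suvh2suvh9 libraries lay far apart in this list, at 481.5 and 1057 CPM summed in replicates 1 and 2. The triple mutant had 314 and 424 CPM and WT 583 and 604 CPM. Against suvh2suvh9 all 17 differences were negative with a median of -1.17. No gene of the list was called there by edgeR's quasi-likelihood test, 12 of 17 had an unadjusted p under 0.05, DESeq2 called 6, and the edgeR count was 8 without suvh2suvh9 replicate 1. Of 10 tested heat shock genes HSP90.1 alone was called, with 4.84 and 3.98 CPM in the triple mutant and 9.89 and 7.87 CPM in WT (-1.01 ± 0.22, adjusted p = 0.0153), and the call was lost without WT replicate 1 or either library of the triple mutant.

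Clock genes changed in both directions. Of 17 tested nuclear clock genes 2 rose and 4 fell against WT, with a median of -0.16. The morning gene LHY had 178 and 155 CPM in the triple mutant, 199 and 211 CPM in suvh2suvh9, 43.7 and 56.4 CPM in pol2a-1, 28.3 and 40.5 CPM in pol2a-2 and 52.9 and 47.0 CPM in WT, and rose 3.33-fold (1.73 ± 0.19, adjusted p = 0.00062, edgeR quasi-likelihood test). RVE1, a related MYB gene, rose by 0.79 ± 0.13. The evening genes GI, FKF1 and PRR5 fell: GI had 14.6 and 17.3 CPM in the triple mutant, which the suvh2suvh9 libraries overlapped, and 45.2 and 44.5 CPM in WT (-1.49 ± 0.37, adjusted p = 0.0266). FKF1 was at 0 counts in both triple mutant and both suvh2suvh9 libraries and had 0.957 and 0.301 CPM in WT, at least 11.1-fold lower in the triple mutant. PRR5 had 0.370 and 0.751 CPM in the triple mutant, 1.16 and 1.3 CPM in suvh2suvh9 and 3.19 and 3.16 CPM in WT (-2.51 ± 0.47, adjusted p = 0.00794). ZTL fell by 0.56 ± 0.14. Other genes of both times of day were not called: the morning genes CCA1 and PRR7 differed from WT by 0.40 ± 0.16 and -0.63 ± 0.24, and the evening genes TOC1, LUX, ELF3 and ELF4 by -0.16 ± 0.15, -0.34 ± 0.18, 0.13 ± 0.21 and -1.39 ± 0.63. The morning gene PRR9, set apart as a copied gene, was lower in the triple mutant (-0.95 ± 0.13, adjusted p = 0.00201, edgeR quasi-likelihood test). The triple mutant and suvh2suvh9 libraries lay on the same side of WT for each of LHY, RVE1, GI, FKF1, PRR5 and ZTL. The hour of harvest is not given in the labels and its part in these values was not tested. Without triple mutant replicate 1 or WT replicate 1 the count of falls was 0, while the call of LHY held in each fit.

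The promoter of PRR5 is shown because MYB factors of the LHY kind are known to bind the evening element, AAAATATCT, which it holds in reverse (AGATATTTT) at both places in capitals. These are the 300 bases before its annotated start in RefSeq's TAIR10.1.

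PRR5, chr5:8358547-8358846 (minus strand): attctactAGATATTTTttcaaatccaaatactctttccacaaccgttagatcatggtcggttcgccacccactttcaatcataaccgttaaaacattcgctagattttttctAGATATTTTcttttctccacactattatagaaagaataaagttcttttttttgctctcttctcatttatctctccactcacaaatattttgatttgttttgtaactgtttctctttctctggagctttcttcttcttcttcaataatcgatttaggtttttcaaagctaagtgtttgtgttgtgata

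Of 18 clock genes 5 held the element on either strand in such a window (27.8%), namely PRR5, TOC1, LUX, BOA and FKF1, beside 765 of 27443 nuclear protein-coding genes (2.79%) and 0 of the 29 damage response genes. PRR5 and FKF1 were called lower against WT, while TOC1, LUX and BOA held the element and were not called, with BOA at -0.55. GI, ZTL and PRR9 were called lower and held no match. A match of letters is a description and not a measured binding site.

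Other lists held few calls. Of 23 tested nuclear photosynthesis genes 2 rose and 0 fell against WT, with a median of 0.08: RBCS1A, a Rubisco small subunit, had 25340 and 21830 CPM in the triple mutant and 11780 and 11500 CPM in WT (1.02 ± 0.15, adjusted p = 0.00286, edgeR quasi-likelihood test), and GAPA rose by 0.75 ± 0.16. Of 17 glucosinolate genes the myrosinase TGG2 alone was called (-0.91 ± 0.14), and of 11 flavonoid genes the chalcone isomerase gene CHI alone (0.72 ± 0.17). ORE1, a NAC factor of leaf ageing, had 4.81 and 6.45 CPM in the triple mutant, 7.59 and 9.28 CPM in suvh2suvh9 and 1.07 and 0.188 CPM in WT (3.08 ± 0.53, adjusted p = 0.00563), and was the only called member of 6 tested senescence genes. Of 22 meiosis genes 3 rose and 1 fell. HEI10, a crossover gene, had 7.02 and 16.6 CPM in the triple mutant and 1.33 and 1.24 CPM in WT, and it overlaps MRD1 on the opposite strand. DMC1 and MND1, which act in meiotic recombination, rose by 1.01 ± 0.16 and 1.04 ± 0.21, and SPO11-2, which acts in making meiotic breaks, fell by 0.63 ± 0.18. Leaving out 1 library lost the call of SPO11-2 in 6 of the 10 fits, those of MND1 and CHI in 4, that of GAPA in 3 and that of DMC1 in 1 (without WT replicate 1). For suvh2suvh9 against WT, the G2 and mitosis list gave 6 called rises and the salicylic acid list 7 called falls. In that comparison the damage response list gave 1 rise, the jasmonate list 4 falls and the cold and drought list 1 rise. These stand beside 941 rises and 1025 falls among all 20079 nuclear genes.

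**Figure D4:**
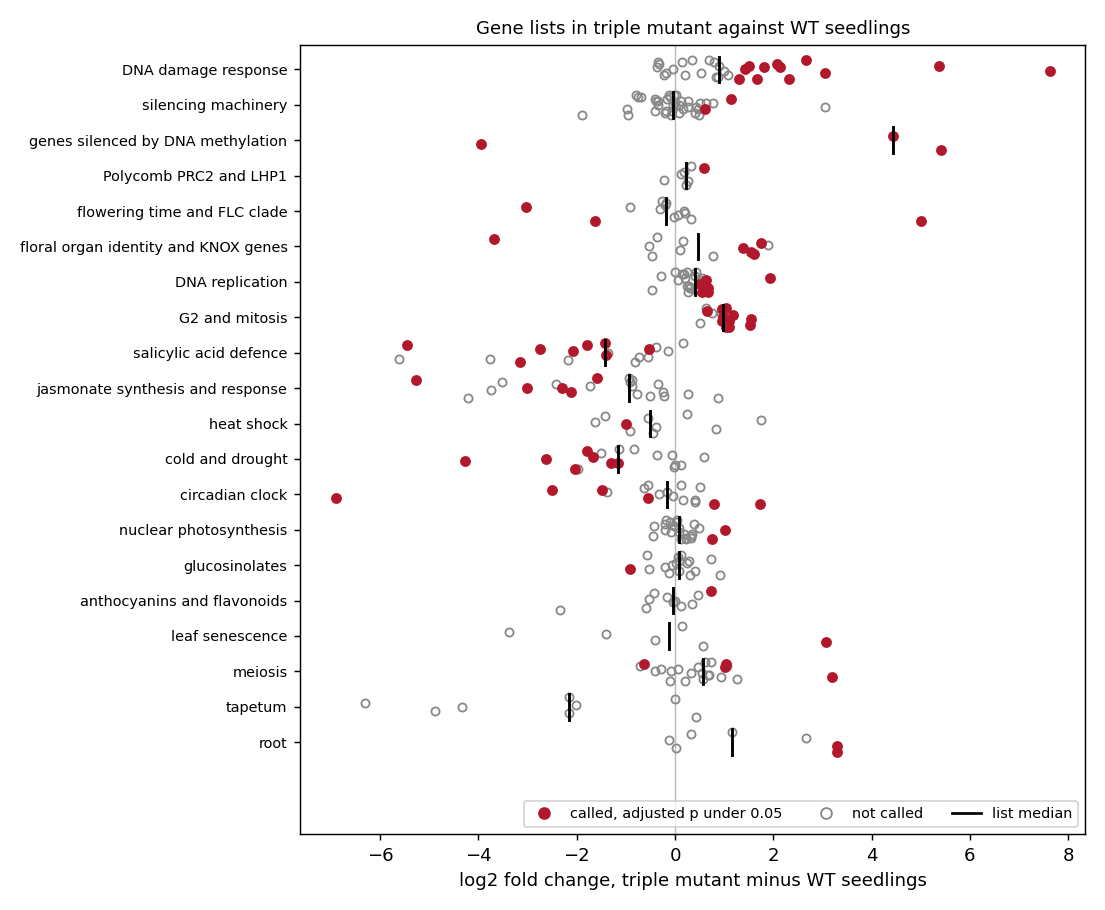
Log2 fold change, triple mutant minus WT, of each tested nuclear gene of 20 lists (1 point per gene, filled where called at adjusted p under 0.05, vertical bar at the list median). The DNA damage response and G2 and mitosis lists lie mostly above 0, with 12 and 11 called rises, and the salicylic acid, jasmonate and cold lists mostly below 0, with 8, 5 and 7 called falls.

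Markers of the tissues that a seedling pool could hold in unequal amounts were set beside these lists. The summed level of the nuclear photosynthesis genes was 116300 and 112500 CPM in the triple mutant and 99090 and 99190 CPM in WT. Most of that gap lay in RBCS1A, described above. Over the list 15 of 23 differences were positive and 8 negative, with a median of 0.08. For the root list the summed level was 58.6 and 56.7 CPM in the triple mutant and 47.4 and 50.6 CPM in WT, with 2 of 7 tested genes higher, NRT2.1 and WOX5, both lost without triple mutant replicate 1 or either WT replicate. For the tapetum list, of the anther layer that feeds pollen, the sum was 13.1 and 15.2 CPM in the triple mutant, 11.2 and 51.4 CPM in pol2a-1 and 14.7 and 15.1 CPM in WT. Of its 8 tested genes 7 were below WT and 1 above, with a median log2 difference of -2.16. By edgeR's quasi-likelihood test or by DESeq2 0 of 8 were called, and 0 had an unadjusted p under 0.05. At 0 counts were 8 and 9 of its 14 genes in the triple mutant and 6 and 3 in WT. The part of tissue make-up in the results was not tested.

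Among the largest rises against WT were genes that suvh2suvh9 also expressed. AT5G24240, annotated as similar to a phosphatidylinositol kinase, had 15.0 and 19.6 CPM in the triple mutant, 22.1 and 20.2 CPM in suvh2suvh9, 0.201 and 0.174 CPM in pol2a-1, 0.934 and 0.666 CPM in pol2a-2 and 0.174 and 0.150 CPM in WT (6.68 ± 0.28, adjusted p = 5.4e-07, edgeR quasi-likelihood test). AT1G33840 had 9.39 and 9.36 CPM in the triple mutant, 22.8 and 14.2 CPM in suvh2suvh9 and 0.0290 and 0.113 CPM in WT (7.04 ± 0.44, adjusted p = 1.2e-05). MLP34, a gene related to major latex proteins, had 74.0 and 54.6 CPM in the triple mutant, 18.0 and 44.1 CPM in suvh2suvh9 and 0.609 and 0.339 CPM in WT (7.03 ± 0.60, adjusted p = 0.000104). In all 3 the triple mutant and suvh2suvh9 libraries lay above every library of the other groups. AT4G08190 was at 0 counts in all pol2a-1, pol2a-2 and WT libraries and had 3.62 and 3.36 CPM in the triple mutant and 0.710 and 1.34 CPM in suvh2suvh9, at least 71.3-fold higher than WT. For AT4G08190 and the 3 genes before it, the groups split as the counting sets do, so genotype and counting set cannot be told apart. CYP708A2, a cytochrome P450 of triterpene synthesis, had 1 count in WT and was 149-fold higher (95% exact counting interval 26.2 to 5921).

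AT1G75945 had another pattern. It had 8.84 and 7.60 CPM in the triple mutant, 0 counts in both suvh2suvh9 libraries, 6.62 and 4.97 CPM in pol2a-1, 2.94 and 3.60 CPM in pol2a-2 and 0 and 0.113 CPM in WT. It was 168-fold higher than WT, where it had 3 counts (95% exact counting interval 57.2 to 820), and at least 148-fold higher than suvh2suvh9. All 6 libraries with a pol2a allele lay above all 4 without. It was called in the triple mutant against WT and against suvh2suvh9 and in pol2a-1 against WT (6.72 ± 0.60, adjusted p = 0.0178, edgeR quasi-likelihood test). AT1TE93275, described above, showed the same order of groups, with counts close to those of AT1G75945 in every library. In the triple mutant the counts were 223 and 170 for the TE and 239 and 172 for the gene. Whether the same reads were counted under both names was not tested, so these may not be separate observations.

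Several other large rises were uneven between the triple mutant libraries. MLP328 had 53.9 and 5.39 CPM in the triple mutant and 0.116 and 0.188 CPM in WT. AT5G37990, AT5G38020 and AT4G14060 had 16.1 and 1.81, 14.9 and 3.4, and 11.4 and 1.99 CPM in the triple mutant, and AT2G05510 had 9.87 and 1.19 CPM in the triple mutant and 0 counts in WT, at least 120-fold higher. The last 4 were lost without triple mutant replicate 1 or either WT replicate (adjusted p between 0.0902 and 0.216), and MLP328 without WT replicate 1 (adjusted p = 0.0616). AT5G23115, the last of the 12 largest rises, had 3.96 and 2.43 CPM in the triple mutant and 0 and 2 counts in WT, and is annotated with a length of only 29 bases.

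The largest falls were in genes of mixed annotation. FAMT, annotated as a farnesoic acid methyltransferase, had 0.739 and 0.486 CPM in the triple mutant, 1.31 and 1.75 CPM in suvh2suvh9, 22.8 and 17.5 CPM in pol2a-1, 23.9 and 15.3 CPM in pol2a-2 and 44.7 and 23.9 CPM in WT (-5.78 ± 0.42, adjusted p = 3.73e-05, edgeR quasi-likelihood test). AT2G15042, a leucine-rich repeat gene, had 0.333 and 0.177 CPM in the triple mutant, 1.79 and 0.708 CPM in suvh2suvh9 and 22.4 and 15.2 CPM in WT (-6.15 ± 0.51, adjusted p = 9.11e-05). Triple mutant libraries were the lowest of all 10 for both. BAM5, a beta-amylase, had 2 counts in the triple mutant group and 8.52 and 2.60 CPM in WT, 148-fold lower (95% exact counting interval 40.6 to 1224). TAT3, a tyrosine aminotransferase induced by jasmonate, had 0.222 and 0.0883 CPM in the triple mutant and 34.6 and 1.84 CPM in WT, so that 1 WT library carried most of its difference, and it was lost without either triple mutant replicate. AT3G20760, annotated as Nse4 of the Smc5/6 repair complex, had 0.592 and 0.442 CPM in the triple mutant, 0.523 and 0.335 CPM in suvh2suvh9 and 11.7 and 10.7 CPM in WT (-4.41 ± 0.36, adjusted p = 8.44e-05). AT5G22430, AT1G05675, AT1G13470, PP2-B13 and AT5G03545 fell by 4.56 to 5.30 on the log2 scale, and the last of these calls was lost without triple mutant replicate 1 or 2 or without WT replicate 1.

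The genes that separated the triple mutant from suvh2suvh9 were then compared with pol2a-1 against WT, a difference that shares no library with it. Of the 36 nuclear genes higher in the triple mutant than in suvh2suvh9, 36 had a positive difference in pol2a-1 against WT and 22 of them an unadjusted p under 0.05 there. Over all tested nuclear genes 52.5% were positive and 15.4% had an unadjusted p under 0.05 in either direction in pol2a-1 against WT. Of the 12 lower genes 5 had a negative difference there, and 0 of these an unadjusted p under 0.05 by edgeR's quasi-likelihood test. In pol2a-2 against WT, which also shares no library with triple mutant against suvh2suvh9, 24 of the 36 were called higher. Of all 48 genes called in either direction, 47 had the same sign in pol2a-2 against WT. Though no library was shared, all these comparisons took each gene's spread from the same fit of 10 libraries. A gene with a small estimated spread is thus favoured in each of them. The counts by p or by call are therefore not independent of how the genes were selected. The difference between these differences, triple mutant minus suvh2suvh9 less pol2a-1 minus WT, was called for 1 nuclear gene higher (0.00498%) and 1 lower (0.00498%), AT1G11070 and ATCTH. AT5G60250, a RING finger gene, had 20.4 and 21.3 CPM in the triple mutant, 1.12 and 0.969 CPM in suvh2suvh9, 4.01 and 1.83 CPM in pol2a-1, 38.2 and 51.7 CPM in pol2a-2 and 1.45 and 0.753 CPM in WT (4.31 ± 0.36 against suvh2suvh9, adjusted p = 0.00145). AT2G18193, an ATPase gene, had 22.6 and 18.0 CPM in the triple mutant, 0.635 and 1.6 CPM in suvh2suvh9, 8.56 and 1.57 CPM in pol2a-1, 82.1 and 66.7 CPM in pol2a-2 and 0.899 and 0.903 CPM in WT (4.17 ± 0.59, adjusted p = 0.0363, lost in 6 of the 10 fits without 1 library). Both genes were highest in pol2a-2, next in the triple mutant, and near 1 CPM in suvh2suvh9 and WT.

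Further genes of the 36 were named after their values were seen. FIB2, a nucleolar fibrillarin, had 59.9 and 63.5 CPM in the triple mutant, 24.7 and 25.1 CPM in suvh2suvh9, 58.5 and 55.8 CPM in pol2a-1, 82.5 and 75.3 CPM in pol2a-2 and 31.6 and 45.5 CPM in WT (1.31 ± 0.17 against suvh2suvh9, adjusted p = 0.0248, edgeR quasi-likelihood test). RPL3B, a ribosomal protein gene, RACK1C_AT, a ribosome-bound scaffold gene, and the nucleolar histone deacetylase genes HDA3 and HDT4 were higher by 1.39 ± 0.21, 1.07 ± 0.14, 1.08 ± 0.17 and 1.29 ± 0.19. These 5 calls were each lost in 5 to 8 of the 10 fits without 1 library. Of the 12 lower genes, RL6, a small MYB gene, had 3.18 and 3.62 CPM in the triple mutant, 12.4 and 11.3 CPM in suvh2suvh9, 4.41 and 5.23 CPM in pol2a-1 and 4.32 and 5.27 CPM in WT (-1.81 ± 0.20, adjusted p = 0.00903). DYL1, annotated as related to dormancy-associated proteins, had 7.06 and 12.9 CPM in the triple mutant, 28.1 and 38.6 CPM in suvh2suvh9 and 13.4 and 14.5 CPM in WT (-1.74 ± 0.28, adjusted p = 0.0496). The calls of RL6 and DYL1 were lost in 3 and 6 of the 10 fits. In both genes suvh2suvh9 was the highest of these groups, and both triple mutant libraries lay below both WT libraries. Neither gene was called between the triple mutant and WT. The count of 48 nuclear genes (0.239%) depended on single libraries, being 8 without suvh2suvh9 replicate 2 and 268 without pol2a-2 replicate 1, and it was 17 with replicate number as a block.

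**Figure D5:**
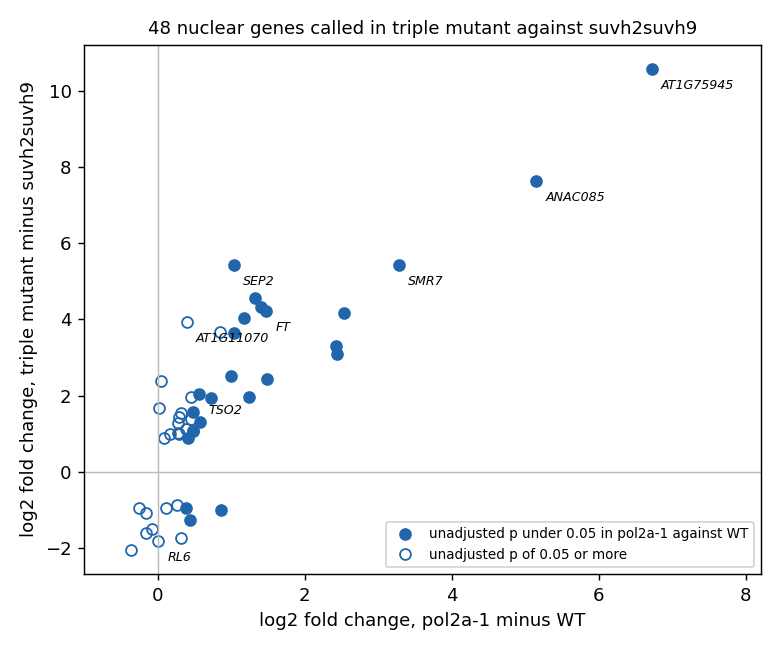
Log2 fold change of the 48 nuclear genes called between triple mutant and suvh2suvh9 (y axis) against the log2 fold change of pol2a-1 minus WT (x axis), comparisons that share no library. Points are filled where pol2a-1 against WT had an unadjusted p under 0.05, with the spread of each gene taken from the same fit for both axes. All 36 genes above 0 on the y axis lie to the right of 0 on the x axis, and of the 12 below it 5 lie to the left.

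Copied and organellar genes are given apart, since they followed the counting sets. Of 353 tested genes with at least 10% repeated sequence, 120 were called higher (34%) and 12 lower (3.4%) against WT, and of 117 organellar genes 5 were called higher (4.27%) and 79 lower (67.5%). Against suvh2suvh9, within 1 set, 0 copied and 0 organellar genes were called by edgeR's quasi-likelihood test, with 40 and 7 at an unadjusted p under 0.05. AT1G58983, a ribosomal S5 family gene with 100% repeated sequence, had 440 and 421 CPM in the triple mutant, 299 and 279 CPM in suvh2suvh9 and 0 counts in the 6 pol2a-1, pol2a-2 and WT libraries. The chloroplast gene ATCG01130 had 1.11 and 1.41 CPM in the triple mutant, 0.523 and 1.16 CPM in suvh2suvh9 and 1437 and 1364 CPM in WT. No change of expression is read from either, because genotype and counting cannot be told apart. Listed genes of this class were the mitotic CDC20.1, with 55.7 and 60.5 CPM in the triple mutant and 19.3 and 19.6 CPM in WT, the clock gene PRR9, with 35.4 and 41.6 CPM in the triple mutant and 75.1 and 73.3 CPM in WT, and the replication gene PSF3, and they were left out of the counts above.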

How the data were processed

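RNA-seq libraries of polyadenylated RNA were made with an unstranded kit, per the labels' protocols. The submitters' processing notes name STAR 2.7.9a, featureCounts 2.0.0, cutadapt 3.4 and DESeq2 1.30.1 with the TAIR10 build, and how strand, multiply mapped reads and overlaps were handled is, in the sources used here, not given. The deposited values used here are raw counts per gene or TE, 1 column per library. They were fitted with edgeR 4.0.16 (limma 3.58.1, R 4.3.3): genes passing filterByExpr with a minimum count of 10, TMM scaling, 1 coefficient for each of 5 genotypes over 10 seedling libraries, a quasi-likelihood F test and Benjamini-Hochberg adjustment over 22297 features. CPM use TMM-scaled library sizes. The script was tested on simulated data first. RefSeq's TAIR10.1 matched 27445 of 27445 nuclear genes and served for coordinates, repeats (100-base windows) and upstream sequences. Genes with at least 10% repeated windows, and organellar genes, were set apart.

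The members and lists were chosen with earlier results of these data known. Named were the 12 largest called rises and falls of nuclear genes with at least 1 CPM on average and both triple mutant libraries beyond both WT libraries, the 6 largest of TEs, up to 4 called members of each list, the 3 largest copied or organellar genes and the 6 largest differences from suvh2suvh9. Further members were named after their values were seen, and 1 called damage response gene is not reported here. A fold against a group at 0 uses a floor of 3 counts over the group, and these floors, like the exact intervals, hold counting error alone. Alternatives were DESeq2 1.42.0, other scalings, filters, sample sets, a replicate block and leaving out each library.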

Additional observations from a re-analysis of the deposited data

Results flagged for a closer look

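Among nuclear genes, 2 differed beyond the spread between libraries in the difference of differences, triple mutant minus suvh2suvh9 set against pol2a-1 minus WT, in which the counting sets cancel (1 higher and 1 lower, 0.00498% of tested nuclear genes each). AT1G11070 had 16.1 and 14.7 CPM in the triple mutant, 0.934 and 1.08 CPM in suvh2suvh9, 5.88 and 3.58 CPM in pol2a-1 and 3.51 and 3.76 CPM in WT, a log2 difference of differences of 3.53 (adjusted p = 0.0294, edgeR quasi-likelihood test). ATCTH, a zinc finger gene, had 110 and 117 CPM in the triple mutant, 192 and 162 CPM in suvh2suvh9, 120 and 128 CPM in pol2a-1 and 52.6 and 57.3 CPM in WT, a difference of -1.81 (adjusted p = 0.0294). Both calls were lost with a replicate block (adjusted p = 0.0611 and 0.0903) and with 20 libraries in the fit (adjusted p = 0.192 and 0.929). Both were also lost without triple mutant replicate 1, either suvh2suvh9 replicate, pol2a-1 replicate 2 or either WT replicate, with adjusted p up to 0.285 for AT1G11070 and 0.352 for ATCTH. ATCTH was lost without triple mutant replicate 2 or pol2a-1 replicate 1 as well. The cause was not tested.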

How the results depend on the processing

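Direction was followed for the named and listed features called against WT and for all features called against suvh2suvh9. None of these called differences changed direction under any setting run. Differences that were not called did, such as that of SOG1 against suvh2suvh9 (-0.13 to 0.21 without 1 library) and that of AP3 there (-0.61 to 1.55). Of the 1279 higher nuclear genes against WT, the count was 2449 with only the 2 groups in the fit, 329 with 20 libraries, 522 at 2-fold and 2319 without pol2a-1 replicate 2 and pol2a-2 replicate 1 (a setting added after seeing the data), and 276 to 2094 when 1 library was left out. The 1166 lower genes became 1835 with no filter, 2544, 227, 575 and 2197 under the same settings, and 329 to 1925 without 1 library. The 203 higher TEs became 44 with 20 libraries, 337 without those 2 libraries and 45 to 284 without 1. The 98 lower TEs became 157 with no filter, 189 with 2 groups, 12 with 20 libraries, 169 without the 2 libraries and 19 to 143 without 1. The 48 nuclear genes against suvh2suvh9 became 950 with no filter, 356 with DESeq2, 20 with 20 libraries, 156 with a gene length offset, 284 without the 2 libraries and 8 to 268 without 1. The 2023 against pol2a-1 became 3842 with no filter, 3535 with 2 groups, 501 with 20 libraries, 869 at 2-fold and 427 to 4305 without 1. The 7 TEs against suvh2suvh9 became 4 with DESeq2 size factors, 98 with no filter, 43 with DESeq2, 11 with 2 groups, 0 with 20 libraries, 16 with the offset, 37 without the 2 libraries and 1 to 19 without 1. The 2 non-additive genes became 703 with no filter, 0 with 20 libraries, 10 without the 2 libraries and 0 to 56 without 1. The cause was not tested.

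With the replicate number as a block, 1031 nuclear genes rose and 990 fell against WT, with 160 TEs higher and 82 lower. Against suvh2suvh9 the block left 17 nuclear genes and 2 TEs, and 0 non-additive genes. Same-numbered libraries did not deviate together in every pair of groups, with correlations over 20079 genes of 0.048 for triple mutant and WT, 0.2246 for triple mutant and suvh2suvh9, 0.1193 for triple mutant and pol2a-2 and -0.0804 for triple mutant and pol2a-1. No label ties the numbers to a batch, so they were not taken as pairs. With 2 libraries in each group, the depth and the spread between libraries limit the calls of genes with few counts.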
